A study of Mus musculus with 2 samples.

Results

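Mir22 is the mouse gene of the microRNA miR-22, and its row is 1 of the 2202 miRNA genes in the deposited tables. It was chosen from the read counts themselves, for a high level and rank that were uneven between the libraries. Its level, rank, share and ratio are therefore given as a description, with no test. The data are microRNA sequencing libraries of the adrenal gland, the organ of steroid-producing cortex and catecholamine-releasing medulla, made from RNA below 30 nucleotides. There was 1 group of 2 libraries, replicates 1 and 2, from female mice of the hybrid strain B6CASTF1/J aged 25 days, with no treatment named. Separate animal numbers are given in the labels, yet the donor identifier is the same for both. With 1 library per replicate, the parts of animal, dissection, library preparation and sequencing cannot be told apart in any difference between libraries.

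A microRNA is cut from a hairpin in a longer primary transcript, and one arm of the hairpin is loaded into an Argonaute protein. Its seed, bases 2 to 8 from the 5′ end, pairs with messenger RNAs and lowers their translation and stability. MiR-22 is a conserved microRNA of many tissues, best known from heart, muscle, blood and fat. Genes reported as its targets in other work include Tet2, which oxidises methylated cytosine, and the histone deacetylase gene Hdac4.

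Mir22 (ENSMUSG00000065529.1) lies at chr11:75463716-75463810 on the plus strand of mm10. In GENCODE M21 it falls wholly within exon 2 of both annotated transcripts of the noncoding host gene Mir22hg. The same bases lie in exon 2 of Tlcd2-203, a noncoding transcript of the neighbouring gene Tlcd2. The hairpin is thus exonic in this annotation. The sequences below, from RefSeq on GRCm38.p6, show the hairpin and both mature arms. Capitals mark the arms in the hairpin and the seed in each arm.
mir-22 hairpin: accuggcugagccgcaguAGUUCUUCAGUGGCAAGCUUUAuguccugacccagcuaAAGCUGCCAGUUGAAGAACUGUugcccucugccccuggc
mmu-miR-22-5p: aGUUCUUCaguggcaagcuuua
mmu-miR-22-3p: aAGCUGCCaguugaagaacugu

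The hairpin has 95 bases, of which 55.8% are G or C, and each arm has 22. RNAfold predicted a minimum free energy of -41.9 kcal/mol with 36 base pairs, 19 of them between the arms. The counts are per gene, so reads of the arms cannot be told apart. Of the 1738 mature mouse sequences in the RefSeq table, none from another gene had the seed of miR-22-3p or that of miR-22-5p. Bases 2 to 7 of miR-22-3p were also found in that place in no other gene's sequence. Those of miR-22-5p were shared with Mir6935, with 1 and 2 reads in the libraries, and Mir7092, with 0 reads in both. By the whole seed miR-22 is thus a family of 1 gene in this table, and no paralog adds to its count. No stretch of 20 bases of the hairpin was found at another annotated miRNA gene position. Among 141767 GENCODE M21 transcripts, both mature arms were found only in transcripts of Mir22, Mir22hg and Tlcd2, all at this locus, on the sense strand. Copies outside annotated transcripts were not searched.

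The word in a messenger RNA that pairs with the miR-22-3p seed is GGCAGCT, and with an A after it the word has 8 bases. That A faces the first base of miR-22-3p, also an A, so it does not pair and the pairing is that of the seed. It was searched on the sense strand of the longest annotated 3′ UTR of 21037 protein-coding genes, in GENCODE M21. GGCAGCT was present in 12.8% of them and GGCAGCTA, which contains it, in 1.95%. All 11 listed genes reported as targets in other work held GGCAGCT. They are Tet2, Esr1, Hdac4, Sirt1, Sp1, Max, Cdk6, Ppara, Bmp7, Erbb3 and Purb. Such reports often start from the seed match, so that count is not independent evidence, and no messenger RNA was measured here. The 3′ UTRs of the 11 genes had 1299 to 10217 bases, against a median of 960 over all genes searched. A long 3′ UTR has more places for the word, so the shares over all genes are not a like background. The longer word was in 3 of the 11, namely in the estrogen receptor gene Esr1, in the deacetylase gene Sirt1 and in the neuregulin receptor gene Erbb3. These stretches of 30 bases are shown to let the pairing be read, with the word in capitals. In mm10 they lie at chr10:5003626-5003655 on the plus strand, chr10:63320143-63320172 on the minus strand and chr10:128569314-128569343 on the minus strand.
Esr1: aaattattcagGGCAGCTAattttgctttt
Sirt1: ccaaaacttgtGGCAGCTAactttttaaaa
Erbb3: gaacatttgatGGCAGCTAgtgcctctttg

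Mir22 had 100873 reads in library 1 and 46284 in library 2, although library 2 was the deeper one. Library 1 held 2244073 reads on the strand of annotated miRNA genes, of 7938596 in all, and library 2 held 3912280 of 11132685. Scaled to 1000000 such reads (CPM), Mir22 had 44951 in library 1 and 11830.4 in library 2, so library 1 was high and library 2 low. The mean was 28391 ± 23419.7 CPM (SD, n = 2), an SD of 82.5% of the mean. Mir22 took 4.50% of the miRNA reads of library 1 (95% Wilson interval 4.47 to 4.52%) and 1.18% of those of library 2 (1.17 to 1.19%). That is 1 in 22.2 miRNA reads in library 1 and 1 in 84.5 in library 2. Multimapped reads, 28.4% of all reads in library 1 and 27.5% in library 2, are not among these miRNA reads. Genes with copies elsewhere can lose reads that way, so the shares and ranks of Mir22 hold among counted reads only. As a share of all reads, uncounted reads included, Mir22 had 1.27% and 0.416%. These intervals cover counting error only and not the spread between animals, and PCR copies of a molecule count as separate reads in them.

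All of these reads lay on the strand of the gene. No read on the opposite strand was counted at Mir22 in either library, which allows up to 0.00297% of its count in library 1 and 0.00648% in library 2. The unstranded column gave the same 100873 and 46284 reads. The strandless counting that set aside reads of genes with an overlapping antisense miRNA gene therefore left Mir22 untouched.

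With TMM scaling, edgeR's correction for composition, the log2 ratio of library 2 over library 1 was -1.84 (95% counting interval -1.86 to -1.82). Mir22 was thus 3.58-fold higher in library 1, a difference with no replicate check. A ratio of 3-fold or more in that direction was found for 2.68% of the 411 genes with 10 or more reads summed, and one of 2-fold or more for 9.98%. By plain CPM the fold was 3.80, and per read of the whole library it was 3.06. Ratios to single genes within a library need no scaling, but they depend on the gene chosen. For each 100 reads of Mir375, a miRNA of endocrine cells, there were 119.6 reads of Mir22 in library 1 and 32.4 in library 2. For each 100 reads of Mirlet7i, of the let-7 family that restrains growth genes, there were 86.6 and 22.1. Both genes were nearly level between the libraries, with log2 ratios of 0.047 and 0.13. Against Mir139, which was also higher in library 1, reads of Mir22 per read went from 1.52 in library 1 to 0.893 in library 2. Against Mir10a, which was higher in library 2, they went from 0.956 to 0.178. The plot of the Mir22 fold by scaling shows library 1 above library 2 under every scaling tried.

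**Figure D1:**
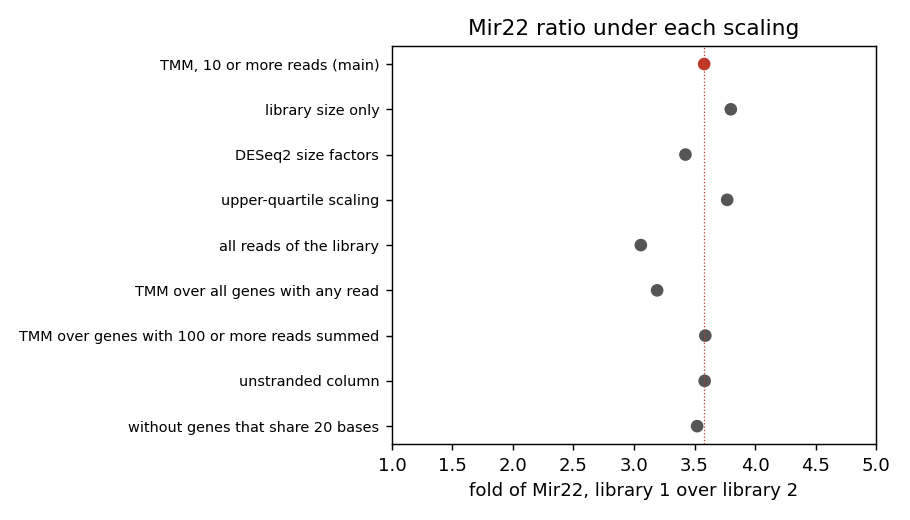
Fold of Mir22 in library 1 over library 2 (x axis) under the TMM scaling used in the text (top, red, dotted line) and 8 alternatives. All points lie between 3.06 and 3.80.

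The rank of Mir22 fell from 7 in library 1 to 20 in library 2, and by the mean of both it was 10. In library 1 it stood between Mir10a of the Hoxb cluster with 47032 CPM and Mir375 with 37574 CPM. In library 2 it stood between Mir21a, a miRNA linked to growth and fibrosis, with 13002 CPM and Mir411 of the Dlk1-Dio3 cluster with 10470.1 CPM. Within each library the 95% Wilson intervals of these neighbours did not overlap that of Mir22. Across libraries the order of Mir22 and its nearest genes by mean was not resolved. By the mean, Mir23b with 30697 ± 4895 CPM stood just above Mir22 and Mirlet7d with 28270.0 ± 9717 CPM just below (SD, n = 2). Of the 14 genes within 2-fold of its mean level, 12 had a mean that differed from that of Mir22 by less than the larger of both SDs. The larger SD was always that of Mir22, so every lower gene in this window meets that limit by construction. The exceptions were Mir10a and Mirlet7i, both higher. These 2 genes and Mir378a, with 48306 CPM in library 1 and 39631 in library 2, were above Mir22 in both libraries.

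Genes of similar level were defined by a mean of 14195 to 56781 CPM, within 2-fold of Mir22. The SD of Mir22 was larger than that of each of these 14 genes, which ranged from 716.0 to 13735 CPM with a median of 5971. None of the 14 had a larger absolute log2 ratio than Mir22. Their median absolute log2 ratio was 0.56, a fold of 1.48, and the largest was 1.08. In library 1 Mir22 was above 11 of the 14, and in library 2 it was above none. The window stops just above Mir451a, the erythroid miRNA, whose mean of 12361 CPM came almost wholly from library 2 and whose log2 ratio was 5.74. With a window of 4-fold, or with the 20 nearest genes, Mir451a was the 1 gene with a larger ratio.

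**Figure D2:**
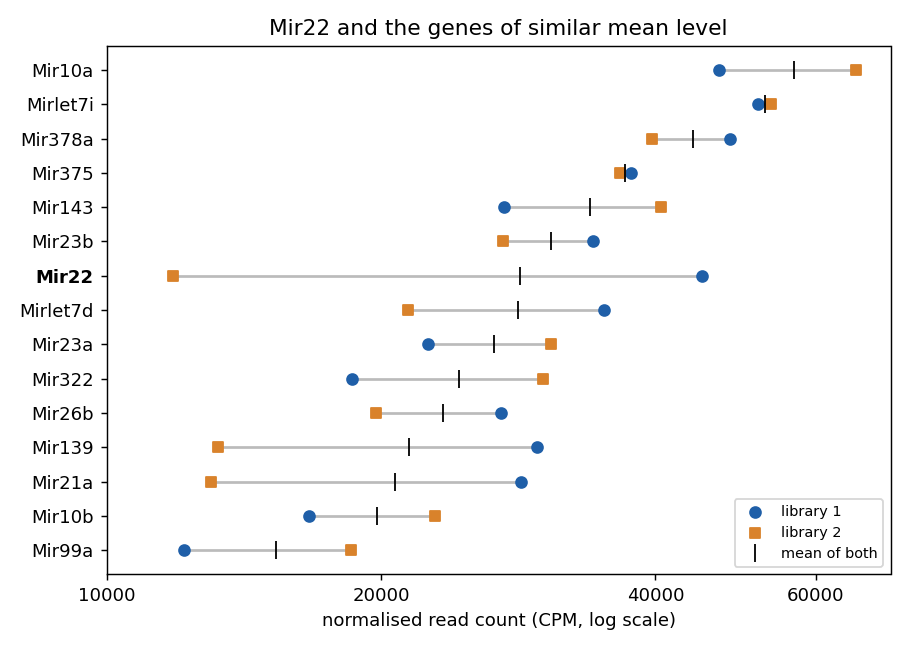
Normalised read counts (CPM, log axis) of Mir22 and the 14 genes of similar mean level in library 1 (circles) and library 2 (squares), with the mean of both as a tick. Mir22 has the longest line, from 11830.4 to 44951 CPM.

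A ratio of 2-fold or more in either direction was found for 2 of the 14 genes, against 20.2% of the 411 genes with 10 or more reads summed. Both were higher in library 1, as Mir22 was. Mir139, which lies in the phosphodiesterase gene Pde2a, had 29641 CPM in library 1 and 13251 in library 2, a fold of 2.11. Mir21a had 28487 and 13002 CPM, a fold of 2.06. These calls hang on the scaling, since 1 of the 14 passed 2-fold with DESeq2 size factors and none with TMM over all genes with any read. None of the 14 passed 3-fold, which Mir22 did, against 5.84% of the 411 genes. At 1.5-fold, 3 of the 14 were higher in library 1 and 3 in library 2, against 22.1% and 19.5% of the 411 genes. Higher in library 1 at that limit were Mirlet7d, Mir139 and Mir21a. Higher in library 2 were Mir143, which marks smooth muscle, Mir322 of the miR-15 seed family, and Mir99a. With DESeq2 size factors, or with TMM over all genes with any read, the split was 2 in library 1 and 6 in library 2.

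Over all 411 genes, 13 had a larger absolute log2 ratio than Mir22. Of these, 7 had 200 or more reads summed. Mir451a, its transcript partner Mir144 and Mir185 were higher in library 2. Mir26a-2, whose count is uncertain because 20 of its bases recur elsewhere, the hepatocyte miRNA Mir122, the neutrophil miRNA Mir223 and mmu-mir-3535 were higher in library 1. Of the genes higher in library 1, the most abundant was Mir122 with a mean of 2838 CPM. The median absolute log2 ratio was 0.50 over all 411 genes, 0.64 over the 20 genes with 10000 CPM or more, and 0.56 over the 225 genes under 100 CPM. Ratios past 3-fold were found in 16 of those 225 genes, and in 2 of the 20 abundant genes, which were Mir22 and Mir451a. Counting error is small at the level of Mir22, as its narrow interval shows.

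**Figure D3:**
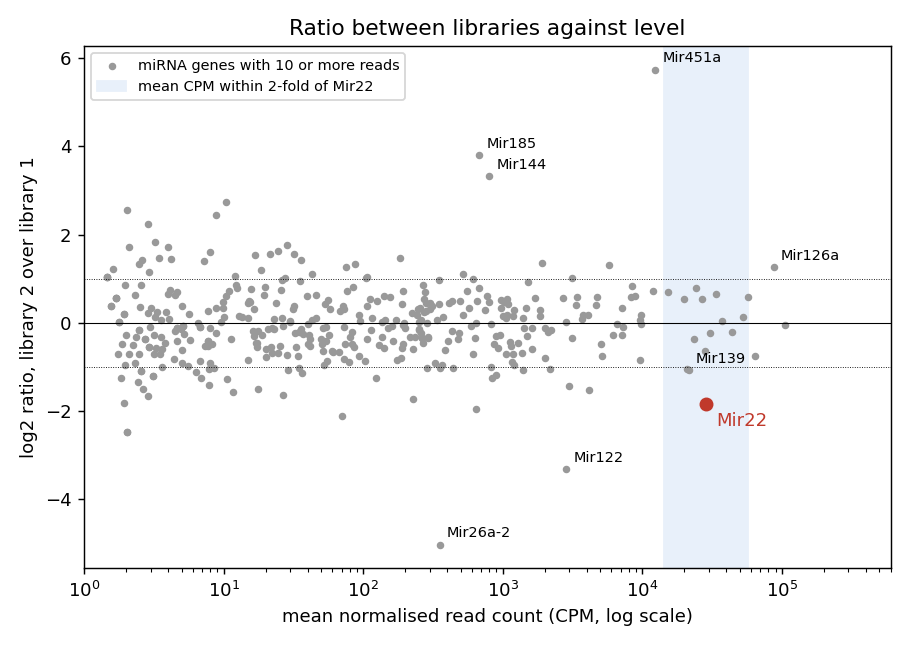
Log2 ratio of library 2 over library 1 against mean normalised read count (CPM, log axis) for 411 miRNA genes, with dotted lines at 2-fold and the 2-fold window around Mir22 shaded. Mir22 (red) lies at -1.84, lower than the 14 other genes in the window.

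The uneven share of Mir22 was among the largest losses of share from library 1 to library 2. Its share was 3.31 percentage points lower in library 2. All genes with a lower share in library 2 lost 20.0 points together, of which Mir22 made up 16.5%. Only Mirlet7b lost more, 3.60 points, from a level of 82202 CPM in library 1. Mir139 with 1.64 points and Mir21a with 1.55 points came next. Shares are parts of a fixed whole, so gains of other genes enter these losses. The share of Mir126a rose from 5.38% in library 1 to 12.1% in library 2, a larger move than that of Mir22.

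The genes with the ratio nearest to that of Mir22 were sought among the 165 others with 1000 or more reads summed. With 2 libraries this likeness rests on a single ratio per gene. The nearest were Mir6538 with a log2 ratio of -1.73 and mmu-mir-3535 with -1.95, both far less abundant than Mir22, with means of 225.8 and 646.4 CPM. Mir125a had 6241 CPM in library 1 and 2038 in library 2, a log2 ratio of -1.53. Mir674 had 4400 and 1544 CPM, a log2 ratio of -1.42. Mir487b of the Dlk1-Dio3 cluster, with a log2 ratio of -1.25, has an uncertain count, since 20 of its bases recur in a row at another miRNA gene. These 5 genes lie on chromosomes 1, 2, 12 and 17, none on that of Mir22.

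Within 500 kb of Mir22, 4 other miRNA genes are annotated. Mir212 and Mir132, 290.2 and 290.0 kb away on the same strand, come from one primary transcript that responds to cyclic AMP. Their main arms share the seed shown in capitals, which differs from that of miR-22.
mmu-miR-132-3p: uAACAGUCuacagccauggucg
mmu-miR-212-3p: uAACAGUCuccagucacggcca

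Mir132 had 1270.5 CPM in library 1 and 524.0 in library 2, a log2 ratio of -1.19, so it too was higher in library 1. Mir212 had 43.2 and 42.4 CPM, with a log2 ratio of 0.056 (95% counting interval -0.30 to 0.42). The ratios of this pair, cut from one transcript, thus differed beyond counting error, and only Mir132 went with Mir22. Mir22 had 35.4 times the reads of Mir132 in library 1 and 22.6 times in library 2. Mir3971, 87.6 kb away, and Gm47300, 145.1 kb away, had 0 reads in both libraries, which allows up to 1.34 CPM in library 1 and 0.767 CPM in library 2.

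MiRNAs that mark cell types also differed between the libraries, and their part in the result for Mir22 was not tested. In tissue, fewer cells of a type and less RNA per cell cannot be told apart. Counts of genes in these lists use a limit of 1.5-fold, which 22.1% of the 411 genes passed towards library 1 and 19.5% towards library 2. The lists are short, and nothing particular to a list is read from its count. The liver marker Mir122 had 5185 CPM in library 1 and 490.5 in library 2, a fold of 9.96 in the same direction as Mir22. The leukocyte list, with 5 of its 6 genes matched to the tables, summed to 2126 CPM in library 1 and 1612 in library 2. At 1.5-fold, Mir223 and the lymphocyte miRNA Mir150 were higher in library 1 and Mir142 in library 2, with Mir342 and the activation miRNA Mir155 between. The adipose list summed to 49022 and 40183.5 CPM, nearly all of it Mir378a. The log2 ratio of Mir378a was -0.20, but -0.034 with TMM over all genes with any read. Its count is uncertain, since it shares a stretch with another position. In the adipose list 1 of 6 genes was higher in library 1 by 1.5-fold, Mir378b, with 20 and 15 reads. The striated muscle list had 13 reads in each library. Mir1a-1, Mir1a-2, Mir133a-1, Mir133a-2, Mir133b and Mir208a were at 0 in both libraries. All of these but Mir208a, 5 of the 9 listed genes, share a stretch with another position and can lose reads. Their counts of 0 cannot be told apart from lost reads.

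The endothelial miRNA Mir126a went the other way, with 53763 CPM in library 1 and 121007 in library 2. The erythroid list of 3 genes summed to 680.5 and 25715 CPM, of which Mir451a made up 480.4 and 24242 CPM. Mir144 went with Mir451a, but Mir486 went with Mir22, at 47.7 CPM in library 1 and 22.0 in library 2. The smooth muscle and fibroblast list summed to 28940 and 41834 CPM, and at 1.5-fold 1 of its 5 genes with 10 or more reads leaned to library 1 and 2 to library 2. That split was 1 and 1 with scaling by library size, and 0 and 2 with TMM over all genes with any read. The neuroendocrine list was nearly level in sum, 43127 and 44374 CPM, most of it Mir375. Of its 8 genes with 10 or more reads, 4 passed 1.5-fold towards library 2, or 3 with scaling by library size and 6 with TMM over all genes with any read, and none towards library 1. The Mir9 and Mir124a genes had 0 or 1 read each, and 8 of the 14 listed genes share stretches with other positions. The epithelial list summed to 1393 and 811.5 CPM, led by Mir203 with 1330 and 762.7 CPM, and at 1.5-fold 2 of its 7 genes leaned to library 1 and Mir141, with 7 and 19 reads, to library 2. The epithelial split was 3 and 0 with scaling by library size, 2 and 2 with DESeq2 size factors, and 1 and 2 with TMM over all genes with any read. Of the 9 lists, that of Mir122 alone had a larger fold in favour of library 1 than Mir22.

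**Figure D4:**
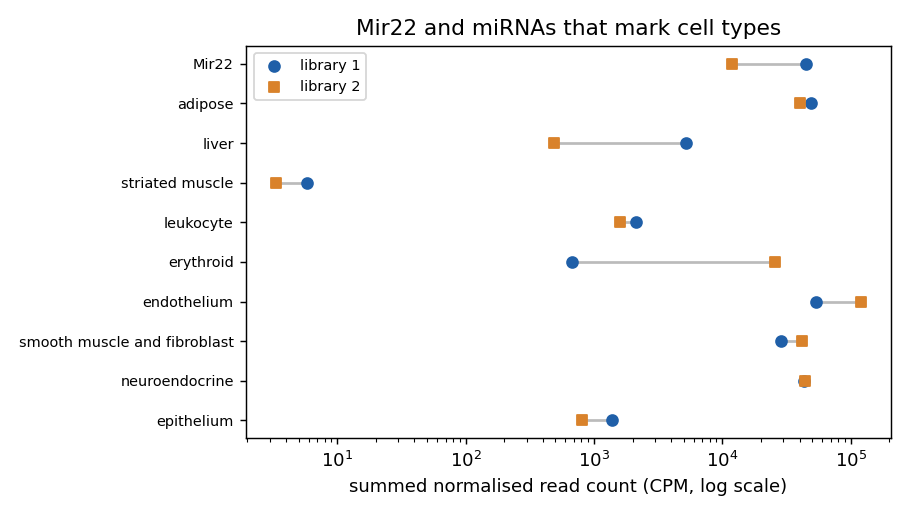
Summed normalised read counts (CPM, log axis) of Mir22 and of 9 lists of miRNAs that mark cell types, in library 1 (circles) and library 2 (squares). By plain CPM, Mir22 and the liver, leukocyte, adipose and epithelial lists are higher in library 1. The erythroid, endothelial and smooth muscle lists are higher in library 2, and the striated muscle list rests on 13 reads in each.

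Other miRNAs that have been reported to act on the targets or processes of miR-22 were listed as well. Of 14 miRNAs reported to act on Tet2, 4 (28.6%) passed 1.5-fold towards library 1 and 2 (14.3%) towards library 2, near the 22.1% and 19.5% over all genes. With TMM over all genes with any read the counts were 4 and 4. The median log2 ratio of the list was -0.37, against -0.074 over all 411 genes. Mir7b, with a log2 ratio of 0.59, Mir125a, Mir29a with 0.086 and Mir29c with 0.52 led it. Of 10 miRNAs reported to rise in cardiac hypertrophy, 8 had 10 or more reads, with a median of -0.51. Of these 8, 3 (37.5%) passed 1.5-fold towards library 1 and none towards library 2, against 22.1% and 19.5% over all genes. The split hung on the scaling. It was 4 and 0 with scaling by library size, 3 and 2 with DESeq2 size factors, and 1 and 2 with TMM over all genes with any read. This list was led by Mir23a with 0.53, Mir21a, Mir195a with -0.70 and Mir27a with -0.44. Members that share stretches with other positions, 11 and 5 genes of these lists, have uncertain counts.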

How the data were processed

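Read counts per miRNA gene were deposited by the authors as 1 table per library, raw and with no pooling. Per the labels and the accompanying text, reads were mapped to mm10 with the GENCODE M21 annotation. No aligner, counter or version is given in the sources used here. Without a header in the tables, column 3 was read as sense-strand counts, since it had the larger total of both stranded columns. Summary rows with no gene did not enter library sizes. In libraries 1 and 2, unmapped reads made up 33.8% and 27.8% of all reads, multimapped reads 28.4% and 27.5%, and those outside any miRNA gene 9.57% and 9.53%.

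CPM used sense-strand reads of all miRNA genes as the library size. Log2 ratios used TMM effective library sizes from edgeR 4.0.16 in R 4.3.3 over genes with 10 or more reads summed, with 0.5 read added. The ratio calculation was run on simulated counts with 200 genes changed by known folds, as many up as down, and counting noise only. Folds were read against the unchanged genes there, so that run does not check the scaling. A gene was called higher at a fold of 1.5, 2 or 3. With 1 group no test between groups was possible and no p-value is given, in place of a quasi-likelihood test. Alternatives included DESeq2 1.42.0 size factors. Python 3.11.15, pandas 2.3.3, scipy 1.17.1 and RNAfold 2.7.2 were used. For the genes described, the RefSeq miRNA table on GRCm38.p6, the assembly of mm10, gave the sequences.

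Named are Mir22, the 5 genes next to it on either side by mean CPM, and the genes within 2-fold of its level past a 2-fold ratio. Named too are the 5 with the nearest ratio among genes with 1000 or more reads, the miRNA genes within 500 kb and up to 4 leading genes per list. Any other gene was chosen after seeing its values. Mir22 and the lists were chosen with earlier results of these data known. One gene and the results that need it are not reported here.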

Additional observations from a re-analysis of the deposited data

How the results depend on the processing

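Mir22 was higher in library 1 under all 8 alternatives, with log2 ratios from -1.93 to -1.61 against -1.84. The ratio was -1.93 with scaling by library size, -1.78 with DESeq2 size factors, -1.91 with upper-quartile scaling, -1.61 per read of the whole library, -1.67 with TMM over all genes with any read and -1.82 without genes that share 20 bases. The scaling is thus a larger uncertainty than counting error. Leaving out 1 library each gave 11830.4 to 44951 CPM and ranks from 7 to 20, with rank 20 without replicate 1. A larger ratio than that of Mir22 was found for 1 gene, Mir451a, of 29 within 4-fold and for 1 of the 20 nearest. With 100 or more reads summed, 45 of 277 genes passed 2-fold, against 83 of 411, so the share was lower as well as the number. Of the 83, 54 were among the 225 genes under 100 CPM and 5 among the 20 with 10000 CPM or more. Of the genes past 2-fold, 49.4% were higher in library 1, but 60.7% with scaling by library size, 59.3% with upper-quartile scaling and 34.2% with TMM over all genes with any read. That last scaling shifted all log2 ratios by 0.17 and turned the median of the list for epithelium to 0.083 and of smooth muscle to 0.15. DESeq2 size factors turned that of smooth muscle to 0.048. Library size, DESeq2 and that last scaling each moved all log2 ratios by 1 constant, -0.086, 0.064 and 0.17. Shifts that small cannot change the sign of a gene past 1.5-fold, so none of the 36 such named genes could change. Of the 22 named genes under that limit, 8 changed sign. The scalings for single genes and lists were chosen after seeing the data. No paired analysis was possible because both libraries belong to 1 group.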

Other observations

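Of the 137 miRNA genes annotated on chromosome 11, where Mir22 lies, 32 had 10 or more reads summed, and their median log2 ratio was 0.0019. At 1.5-fold, 7 of them were higher in library 1, Mir22 included, and 4 in library 2. That is 21.9% and 12.5% of them, against 22.1% and 19.5% of the 411 genes. The split hung on the scaling. It was 8 and 4 with scaling by library size, 7 and 6 with DESeq2 size factors, and 5 and 6 with TMM over all genes with any read. Over the 411 genes those scalings gave 26.5% and 16.3%, 20.2% and 22.6%, and 15.8% and 27.0%. The hairpin of Mir22, with 55.8% G or C, lay near the median of 51.1% over the 411 genes. The 141 other genes within 5 points of it had a median absolute log2 ratio of 0.49, and 6 of them had a larger one than Mir22. Among the 321 genes with no 20 bases in a row in common with a different miRNA gene, Mir22 ranked 8 by mean CPM, and 11 had a larger absolute ratio.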
